A study of Mus musculus with 4 samples.

Results

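Bc1 is a small noncoding RNA of rodent neurons, and its counts are described here across 4 mouse brain sections. It was chosen by its symbol, from earlier results of these sections in which its share of all counts differed between trained and untrained mice, and it is 1 of 32285 genes listed in each section. The sections come from adult male mice of genotype ArcCreERT2:eYFPflx on a C57BL/6 background, 3 to 4 months old. In this line the Arc promoter drives a Cre recombinase that works only after 4-hydroxytamoxifen, so cells with an active Arc gene at that time keep making eYFP. The trained group, 2 mice, learned to avoid a shock zone on a rotating arena; the untrained group, also 2 mice, met the same arena with the shock off. All 4 mice received 4-hydroxytamoxifen under brief isoflurane and were killed 3 days after a retention test. Each mouse gave 1 coronal section on a Visium array, in which every capture spot records polyA RNA; molecules are counted by their barcodes as unique molecular identifiers (UMIs).

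BC1, the RNA made from Bc1, is transcribed by RNA polymerase III, stays in the cytoplasm and is carried along dendrites to places near synapses. It binds poly(A)-binding protein and the helicase eIF4A and in this way holds back the start of translation. The gene is found in rodents and arose from a copy of an alanine transfer RNA, with an A-rich stretch in its middle.

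Bc1 (ENSMUSG00000115783) lies on the forward strand of GRCm38 chromosome 7, from 144914470 to 144914637. GENCODE lists it as a lincRNA of 1 exon and 168 bases, and RefSeq ends it earlier, at 144914623, with 154 bases. The GENCODE sequence is shown whole because its composition differs along its length. Capitals mark the A-rich stretch, positions 77 to 136 counted from 1 at the 5′ end.
Bc1: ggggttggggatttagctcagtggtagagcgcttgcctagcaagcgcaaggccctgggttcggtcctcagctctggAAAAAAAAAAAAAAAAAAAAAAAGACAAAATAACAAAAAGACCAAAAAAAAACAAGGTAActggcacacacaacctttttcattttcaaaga
Of the 60 bases in the stretch 49 are A (81.7%), and the longest run of A is 23 bases. The part before it is 61.8% G or C, and 32 bases follow it. Where along BC1 the UMIs began cannot be read from the files, which hold counts and no reads.

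The listed genes nearest to Bc1 on the chromosome had low levels. RNA from sequence outside listed genes cannot be seen in these counts. The nearest listed gene, LTO1, starts 463 bases after Bc1 on the same strand and had 13.9 and 15.6 UMIs per 1000000 UMIs (CPM, the unit of level used throughout) in trained 1 and trained 2, and 12.4 and 14.7 in untrained 1 and untrained 2. The genome held 7 other matches over at least 90% of the length of Bc1, the closest with 86.4% identity over 154 bases. Matches of any length numbered 24801, that of Bc1 itself among them. Of these, 1079 ended before the A-rich stretch or just inside it. A pseudogene, Bc1-ps1, matched over 97 bases with 91.8% identity and is not among the listed genes. How many UMIs of such copies, whole or partial, were counted as Bc1 was not tested.

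The 4 sections differed in depth, and 2 of them stood apart. Trained 1 had 7119995 UMIs over 2865 spots, trained 2 had 10330015 over 3055, untrained 1 had 3560294 over 2359 and untrained 2 had 6581748 over 2661. Untrained 1 was the shallowest, with a median of 1048 UMIs per spot and 22.8% of spots under 500 UMIs, against medians of 1936 in trained 1, 2493 in trained 2 and 1851 in untrained 2. Trained 2 was the deepest and, as described below, had an area with far more Bc1 than the rest of its section. Sections shared between 1353 and 2413 spot barcodes in pairs; Visium capture areas carry the same fixed barcode set, so a shared barcode marks a position and not a shared cell. The labels name the tissue hippocampus, but markers of cortex, thalamus, hypothalamus, striatum, white matter, choroid plexus, ependyma and meninges each led spots in all 4 sections, beside those of CA1, CA3 and the dentate gyrus (DG).

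Bc1 was among the most abundant RNAs of every section. It ranked behind mt-Co1, a mitochondrially encoded gene, in trained 1 and held rank 1 among all genes in the other 3 sections, and it had at least 1 UMI in 98.4% to 99.7% of spots. Its level was 22566 CPM in trained 1 (95% Wilson interval 22457 to 22675) and 16448.5 in trained 2 (16371 to 16526). In untrained 1 it was 47765 (47544 to 47987) and in untrained 2 it was 33729 (33591 to 33867). Both trained sections lay below both untrained sections, and the intervals cover counting error only. As a share of all UMIs, Bc1 took 2.26%, 1.64%, 4.78% and 3.37% in the same order.

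The group means were 19507 ± 4326 CPM in trained sections (SD, n = 2) and 40747 ± 9925 in untrained sections (SD, n = 2), a log2 ratio of -1.06. This is the contrast that chose Bc1, so it is given as a description without a test. Counted per spot rather than per UMI, the difference was smaller: Bc1 had 56.1 and 55.6 UMIs per spot in trained 1 and trained 2, and 72.1 and 83.4 in untrained 1 and untrained 2. The groups did not overlap on this scale either, and the log2 ratio of means was -0.48. All other genes together had 2429 and 3326 UMIs per spot in the trained sections and 1437 and 2390 in the untrained sections, with a log2 ratio of 0.59. The lower share of Bc1 in trained sections thus held both fewer Bc1 UMIs and more UMIs of other genes, and the part of depth in it was not tested.

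Bc1 took a larger share of shallow spots than of deep spots in all 4 sections. From spots with under 500 UMIs of other genes to spots with at least 4000, the level went from 29449.9 to 20377 CPM in trained 1 and from 71069.8 to 9841 in trained 2. It went from 65292 to 36813 in untrained 1 and from 43737 to 27865 in untrained 2. The shallow bin exceeded the deep bin 1.45-fold, 1.77-fold and 1.57-fold in trained 1, untrained 1 and untrained 2, and 7.22-fold in trained 2, so trained 2 stood apart from the other 3.

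In UMIs rather than shares, Bc1 rose with depth, by less than in proportion. A slope was fitted over spots, of log2 of Bc1 UMIs plus 1 on log2 UMIs of other genes. It was 0.81 in trained 1, 0.83 in untrained 1 and 0.87 in untrained 2, and 0.41 in trained 2. Among the 100 most abundant genes of a section, ordered from the lowest slope, Bc1 held rank 92, 94 and 95 in the former 3 sections and rank 2 in trained 2. The added 1 flattens the slope of genes with few UMIs per spot, so these ranks also depend on abundance, in which Bc1 is at or near the top. Spearman's rho between its share and the UMIs of other genes was -0.137, -0.325, -0.168 and -0.0717 in trained 1, trained 2, untrained 1 and untrained 2, over 2864, 3055, 2359 and 2661 spots. Among the same 100 genes, ordered from the lowest rho, Bc1 held rank 6, 1, 2 and 14, so by this measure its share was among those that fell most with depth, and the 2 measures differ on its place in 3 sections. Spots of a section share a library and are not replicates, so these are descriptions.

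Compared at like depth, the gap between trained and untrained sections depended on the bin. In spots with under 500 UMIs of other genes trained 2 had the highest level and trained 1 the lowest, and the 2 groups overlapped. They overlapped also from 500 to 1000 UMIs, where the log2 ratio of group means was -0.18. There too trained 2 had the highest level (57735 CPM) and trained 1 the lowest (27772). The area of high Bc1 in trained 2, described below, was shallow, with a median of 1106 UMIs per spot. Its part in these bins was not tested. From 1000 to 2000 the ratio was -0.52, from 2000 to 4000 it was -1.01 and from 4000 on it was -1.10, and in these 3 bins both trained sections lay below both untrained sections.

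**Figure D1:**
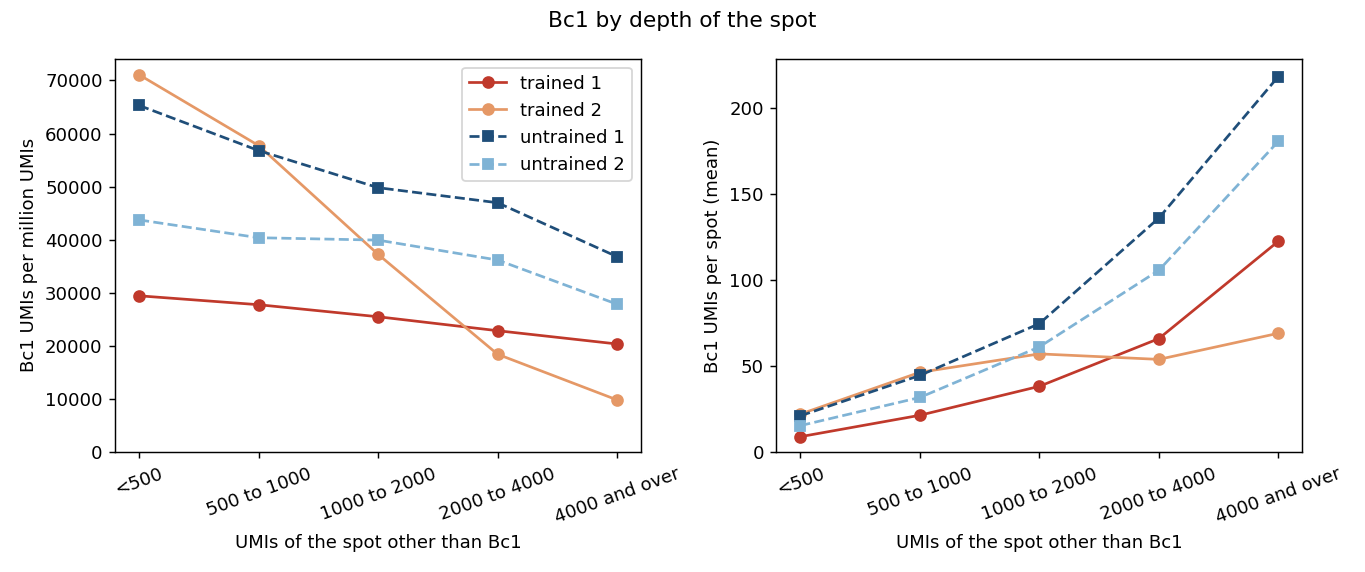
Bc1 as CPM (left) and as mean UMIs per spot (right), over bins of the UMIs of other genes in a spot, with 1 line for each of the 4 sections and no error bars. The line of trained 2 drops 7.22-fold from the shallowest to the deepest bin, and the other lines drop between 1.45-fold and 1.77-fold.

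The map of Bc1 in trained 2 showed a sharply bounded area at the lower lateral side of the section. To measure it, spots were taken whose share of Bc1, summed with the neighbouring spots, was at least 2 times that of the section, and the largest connected body of them was kept; this was done after the map was seen and uses Bc1 itself. In trained 2 the body held 755 spots (24.7% of the section) and 54.6% of its Bc1 UMIs. In trained 1, untrained 1 and untrained 2 it held 65, 80 and 73 spots. Only trained 2 therefore had a body of this size.

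Inside the body of trained 2 Bc1 stood at 78495 CPM, and in the rest of that section at 8435. Bc1 UMIs per spot were 122.8 inside and 33.6 outside, while the median of all UMIs per spot was 1106 inside and 3144 outside. Without their bodies trained 1, untrained 1 and untrained 2 stood at 21842, 45230.3 and 32650 CPM. The body of trained 2 held 448 spots led by no list, 95 led by striatal markers, 41, 27 and 22 led by markers of upper-layer, layer 6 and layer 5 cortex, 72 led by hypothalamic markers, 37 led by meningeal markers and 10 led by choroid plexus markers. It held no spot of the hippocampal cell layers or their neuropil, as these are defined below, so the main hippocampal values of Bc1 do not draw on it. In trained 2, 72 of the 432 hypothalamic spots lay in the body, with 75808 CPM, and the other 360 had 11246.5; of layer 6 cortex 27 of 172 spots lay in it, with 69731 CPM, and the other 145 had 6350.2.

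**Figure D2:**
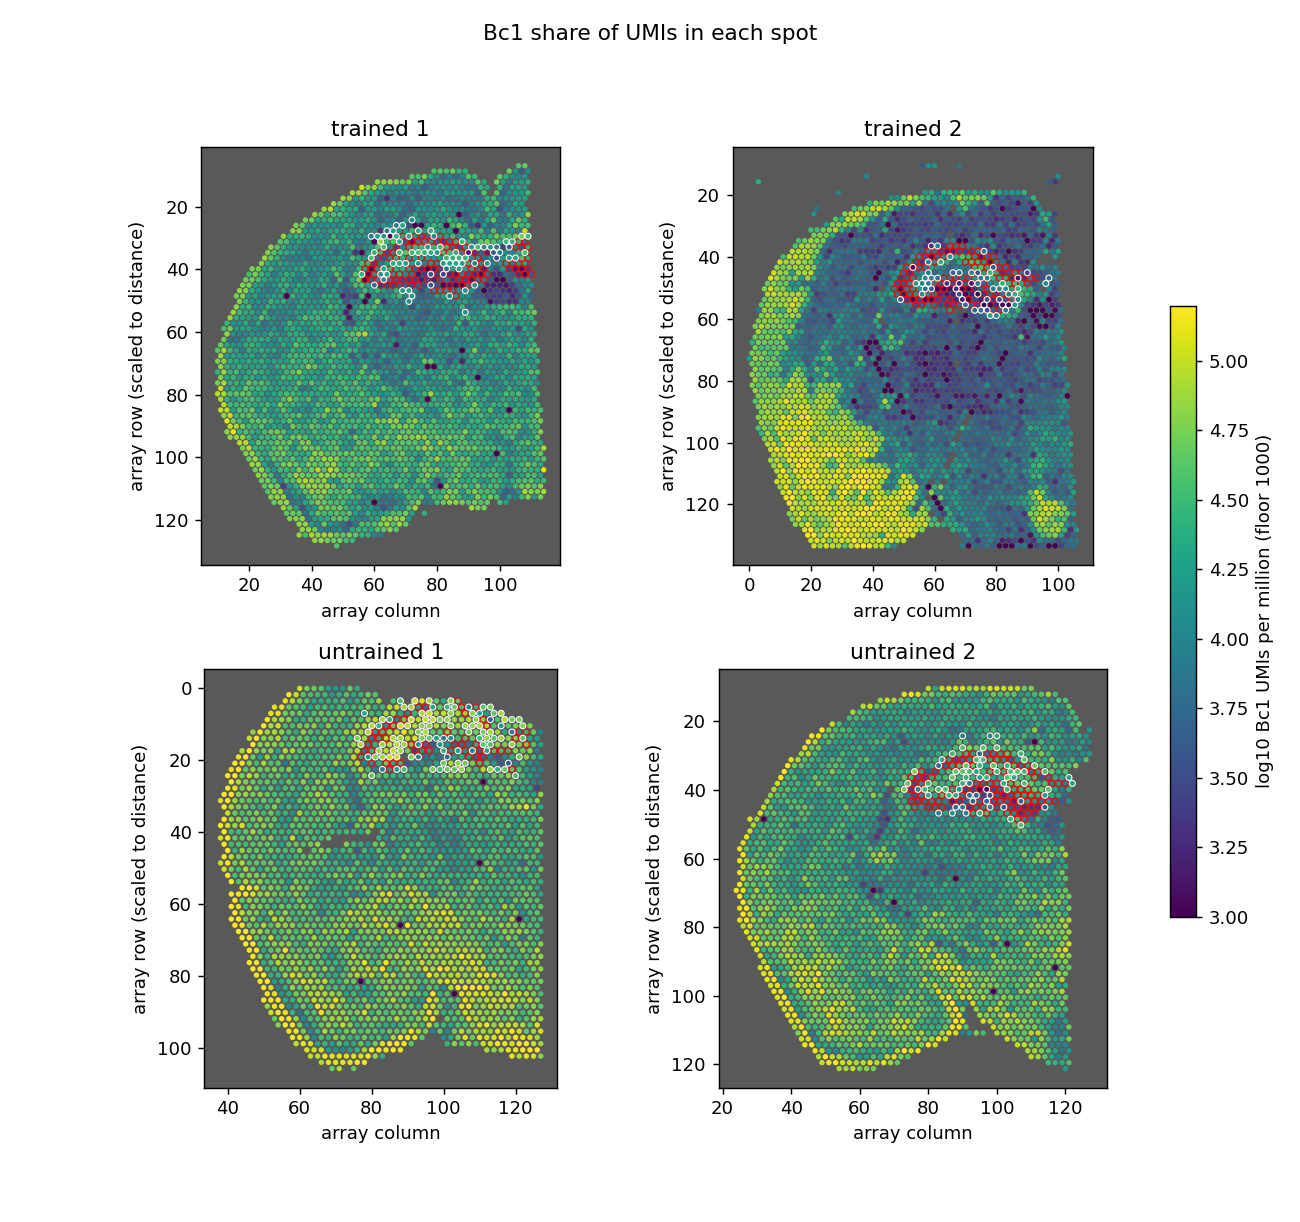
Level of Bc1 in every spot of the 4 sections on the array grid (columns and rows, scaled to distance), as log10 of CPM with a floor of 1000; red rings mark cell-layer spots of the hippocampus and white rings its neuropil spots. Levels are higher along the outer edge than inside in every section, by the least in trained 2. They are low in the hippocampal cell layers, and high over a bounded area of 755 spots in trained 2.

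Bc1 was also high along the edge of the tissue. Spots next to an empty array position had 40297 CPM in trained 1, against 20927 in spots at least 4 steps inside. The same pair was 19547.5 and 16127 in trained 2, 84245 and 42531.5 in untrained 1, and 70644 and 30072.5 in untrained 2. Edge spots were higher in 4 of 4 sections, by the least in trained 2. Per spot, Bc1 had 64.7 UMIs at the edge and 52.2 inside in trained 1, 82.8 and 65.5 in untrained 1, and 132.4 and 75.3 in untrained 2, but 52.4 and 59.2 in trained 2, the reverse. Edge spots were also shallower, with medians of 1129, 2002, 624 and 1423 UMIs per spot against 1963, 2751.5, 1075 and 1896 inside, in the order trained 1, trained 2, untrained 1 and untrained 2.

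Brain regions were set by 14 lists of marker genes that do not include Bc1, and 13 of them had at least 10 spots in every section. CA3 had 8 spots in untrained 1 and is given by its values alone. The score of a list was averaged over a spot and its neighbours; scores of single spots had been planned, and this was changed after maps and levels of Bc1 had been seen. A spot covers several cells and their processes, so a regional level mixes cell types, and fewer cells that make Bc1 cannot be told apart from less BC1 per cell.

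By mean over the 4 sections, the lowest levels of Bc1 were in the layers of hippocampal cell bodies. DG, the layer of granule cells, had 5837 and 5480.2 CPM in trained 1 and trained 2, and 19666 and 10989 in untrained 1 and untrained 2. CA3 had 7164, 5272, 20723 and 9320.3 in the same order, and CA1 had 10509.6, 10541.5, 25666 and 13022. Untrained 1 was highest in each of these layers, and both trained sections lay below both untrained sections. The order was not the same in each section: CA1 held rank 6 from the bottom of the 13 regions in trained 2, choroid plexus lay below CA1 in trained 1, and choroid plexus was the lowest of these 13, though above CA3, in untrained 2. Means over the 4 sections were 10493 ± 6613 in DG, 10619.9 ± 6936 in CA3 and 14935 ± 7250.2 in CA1 (SD, n = 4).

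Thalamus, choroid plexus and medial habenula came next. Bc1 stood at 18166 ± 10462 CPM in thalamus, 18509 ± 13271 in choroid plexus, the tissue that makes cerebrospinal fluid, and 20285.6 ± 16227 in medial habenula (SD, n = 4). These 3 means differed by less than their spread over sections, and trained 2 had its lowest regional level, 4621, in thalamus.

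Cortex and white matter had middle levels of Bc1. Layer 5 cortex had 26153 ± 14979, layer 6 cortex 26722 ± 12911, white matter 29143 ± 17509 and upper-layer cortex 31356 ± 13412 CPM (SD, n = 4). Upper-layer cortex had 22603, 18300.3, 47493.5 and 37029 in trained 1, trained 2, untrained 1 and untrained 2. In trained 2, 41 of its 113 spots lay in the bounded body, with 63114 CPM, and the other 72 had 10544.5.

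By mean over the 4 sections, the 4 regions with the highest levels of Bc1 were outside hippocampus and cortex. Spots led by striatal markers had 31558.5 ± 6151, hypothalamus 35903 ± 15712, ependyma, the lining of the ventricles, 41203 ± 23464 and meninges, the membranes over the brain, 55411 ± 26907 CPM (SD, n = 4). The mean of striatal-marker spots was close to that of upper-layer cortex, and in both untrained sections these spots lay below upper-layer cortex. In meninges the values were 36224 in trained 1, 28535 in trained 2, 81653 in untrained 1 and 75232 in untrained 2, the highest of the 13 regions in 4 of 4 sections. In trained 2, however, 37 of its meningeal spots lay in the bounded body and had 65702 CPM, and the other 50 had 11465. Outside the body, meninges lay below ependyma (19441.5) and striatal-marker spots (12690.3) in trained 2. Outside the smaller body of trained 1, meninges (28022.7) lay below striatal-marker spots (30059.8) and hypothalamus (29113.5). The first rank in both trained sections thus rested on spots of the bodies, which were chosen for their high share of Bc1. Spots led by no list had 43575 ± 12999.

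**Figure D3:**
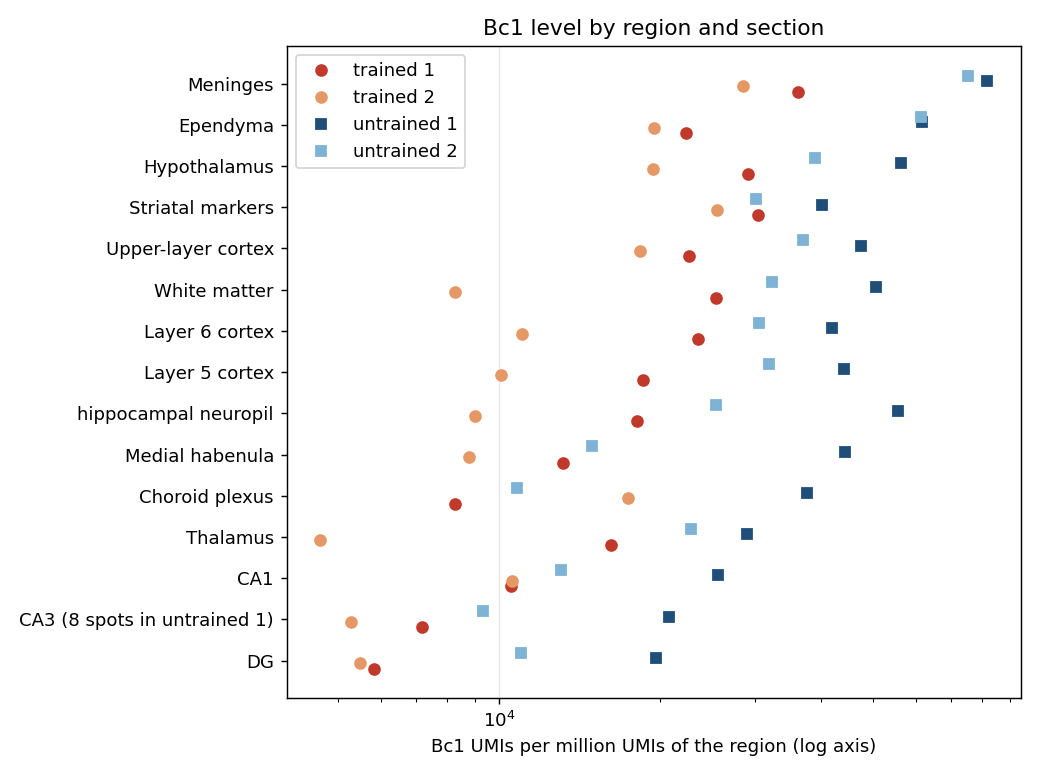
Bc1 level in CPM of each region (log axis), with 1 point for each of the 4 sections, circles for trained and squares for untrained. DG, CA3 and CA1 lie at the bottom, meninges at the top with values from 28535 to 81653, and untrained 1 is to the right of the trained sections in every region.

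Whether Bc1 differed between regions was tested by comparing each region with the mean of the other 12, on sums of UMIs per region and section with section as a block (edgeR, 7264 genes, adjusted p under 0.05 counted as called). Bc1 was called in 7 of 13 regions, higher in 4 and lower in 3. The share of all tested genes called ranged over regions from 2.44% in meninges to 36.2% in thalamus. Bc1 was higher in meninges by a log2 ratio of 1.35 (SE 0.15, edgeR adjusted p = 3.75e-11; 2.44% of genes called). In ependyma the ratio was 0.70 (SE 0.16, edgeR adjusted p = 0.00259; 4.5% called), in spots led by striatal markers 0.59 (SE 0.16, edgeR adjusted p = 0.00514; 18.6% called) and in hypothalamus 0.55 (SE 0.16, edgeR adjusted p = 0.00639; 28.2% called).

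Bc1 was lower in DG, at a log2 ratio of -1.49 (SE 0.20, edgeR adjusted p = 4.87e-09; 18.2% of genes called). It was lower in CA1, at -0.82 (SE 0.19, edgeR adjusted p = 0.000611; 15.8% called), and in thalamus, at -0.61 (SE 0.18, edgeR adjusted p = 0.00474; 36.2% called). DG held rank 1 or 2 from the bottom of the 13 regions in every section. Not called were upper-layer cortex (0.35), white matter (0.23), layer 6 (0.03), layer 5 (-0.06), choroid plexus (-0.28) and medial habenula (-0.54, edgeR adjusted p = 0.0514). In these 6 regions the shares of all genes called were 20.8%, 27.8%, 17.4%, 17.5%, 13.1% and 7.86%.

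Some of these calls rested on a section or on how spots were scored. Without untrained 2 the ratio in ependyma was 0.46 (edgeR adjusted p = 0.181), and without trained 1 that of striatal-marker spots was 0.48 (edgeR adjusted p = 0.108), so neither was called. Without trained 2 the thalamus ratio shrank to -0.36 (edgeR adjusted p = 0.0300), and choroid plexus (-0.65, edgeR adjusted p = 0.000184), white matter (0.45, edgeR adjusted p = 0.00337) and medial habenula (-0.47, edgeR adjusted p = 0.0179) were called. Medial habenula was also called without untrained 1 (-0.80, edgeR adjusted p = 0.00538). With spots labelled by their own score alone, the planned setting, CA1 was not called at -0.05 (edgeR adjusted p = 0.846), DG stood at -0.84 and meninges at 0.42, both called. Striatal-marker spots (0.51) and hypothalamus (0.50) then lay above meninges, so meninges lost its place as the highest region. Thalamus (-0.55) then lay below CA1 and CA3 (-0.24, edgeR adjusted p = 0.187), so of the hippocampal layers only DG stayed the lowest. In this setting 5 regions were called. Its fit held CA3 in place of ependyma, so ependyma, called in the main setting, was not tested in it. In the order of the fitted levels, from DG up to meninges, 0 of the 12 pairs of neighbouring regions were called for Bc1 by edgeR, with 2 at an unadjusted p under 0.05; the lowest adjusted p was 0.106, for CA1 over DG.

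The hippocampus sets cell bodies and dendrites apart in layers, so Bc1 was compared between them within each section. Neuropil, the tissue of dendrites and axons, was taken as spots 1 to 3 array steps from a cell-layer spot that were led by no list and had low CA1, CA3 and DG scores: 79 spots in trained 1, 59 in trained 2, 106 in untrained 1 and 73 in untrained 2. The cell layers of CA1, CA3 and DG together had 111, 111, 52 and 103 spots. This definition was set after the spot counts and the levels of Bc1 under several definitions had been seen. The plan had left out the ring next to the cell layers, which here gives 21, 4, 42 and 7 neuropil spots, and had used scores of single spots.

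Bc1 took a larger share of UMIs in neuropil than in cell layers in 4 of 4 sections. It stood at 18120.4 CPM in neuropil and 7632 in cell layers of trained 1, and at 8991 and 7349.8 in trained 2. It stood at 55590 and 22726 in untrained 1 and at 25388 and 11239 in untrained 2. Neuropil was higher 2.37-fold, 1.22-fold, 2.45-fold and 2.26-fold in these sections, with trained 2 well below the other 3. The mean log2 ratio over sections was 1.001 ± 0.476 (SD, n = 4), with an exact two-sided sign-flip p = 0.125, the smallest that 4 sections allow.

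In the fit over all genes, with section as a block, the log2 ratio of Bc1 was 1.18 (SE 0.075, edgeR adjusted p = 1.86e-18), and 6.16% of 4203 genes were called, 181 higher and 78 lower in neuropil. DESeq2 gave 1.15 (SE 0.24, adjusted p = 5.96e-05). The spread between sections, 0.48, was wider than the edgeR standard error, which borrows its spread from other genes. Since the definition was chosen with levels of Bc1 known, these p values are read with those of other definitions. With the ring next to the cell layers left out, as planned, Bc1 was not called (0.91, edgeR adjusted p = 0.0533), and neuropil was higher 2.13-fold, 1.03-fold, 2.85-fold and 2.19-fold in trained 1, trained 2, untrained 1 and untrained 2. With that ring left out and scores of single spots, as in the plan, it was called (1.05, edgeR adjusted p = 1.91e-11), but 465 to 545 spots in a section then counted as neuropil. The folds were then 1.89, 2.67, 1.66 and 1.87 in the same order, and in trained 2 the bounded body held 259 of the 489 neuropil spots and 37 of the 263 cell-layer spots; outside the bodies the fold there was 1.15. The call was also lost where hippocampal layers were set by scores averaged over neighbouring spots alone (0.56, edgeR adjusted p = 0.192).

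Per spot, Bc1 was lower in neuropil, not higher. Bc1 UMIs per spot were 27.6 in neuropil and 33.8 in cell layers of trained 1, 25.6 and 38.0 in trained 2, 49.5 and 70.1 in untrained 1, and 40.2 and 51.9 in untrained 2. The ratio was under 1 in 4 of 4 sections, with a mean log2 of -0.43 ± 0.13 (SD, n = 4). Depth fell further: the median of all UMIs per spot in neuropil was 0.328, 0.601, 0.298 and 0.357 times that in cell layers. The larger share of Bc1 in neuropil was thus a smaller drop of Bc1 than of the sum of other genes.

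At like depth the gap in the share of Bc1 between neuropil and cell layers was smaller in trained 1, untrained 1 and untrained 2, and it varied in trained 2. In spots with 1000 to 2000 UMIs of other genes neuropil was higher 2.25-fold in trained 1, 1.44-fold in trained 2, 1.41-fold in untrained 1 and 1.67-fold in untrained 2. From 2000 to 4000 UMIs it was 1.90-fold in trained 1 and 1.21-fold in untrained 2, and in trained 2 it was 0.944-fold, so the direction there was the opposite. From 4000 on, where only trained 2 had enough spots of both kinds, neuropil was higher 1.37-fold. Untrained 1 had too few spots from 2000 on. With only spots of 1000 to 4000 UMIs other than Bc1, an alternative chosen after seeing the data, the log2 ratio was 0.79 (edgeR adjusted p = 5.30e-07).

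Other groups of genes moved with Bc1 between neuropil and cell layers. In all 4 sections neuropil had larger shares of the 13 mitochondrially encoded genes (mean log2 ratio 0.73 ± 0.055), of 8 astrocyte markers (0.75 ± 0.058), of 7 microglial markers (0.93 ± 0.23), of 7 interneuron markers (0.29 ± 0.20), of the 3 ribosomal RNA-like genes (0.32 ± 0.18) and of 4 globin genes (1.28 ± 0.48; SD, n = 4). Their most abundant genes were mt-Co1 or mt-Co3, Apoe, C1qb or C1qc, Sst or Gad1, Gm42418, and Hbb-bs. With mitochondrially encoded genes, Ttr and ribosomal RNA-like genes left out of the counts, the ratio of Bc1 was 1.17. The part of glial RNA in the share of Bc1 was not tested.

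Messenger RNAs known to enter dendrites were set beside Bc1. Of 14 dendritic mRNAs, 10 were higher and 4 lower in neuropil, with a median log2 ratio of 0.18 against -0.01 over all genes tested. Of the 14, edgeR called 4, against 6.16% of all genes, and 8 had an unadjusted p under 0.05, against 16.4% of all genes. Called higher were Eef2, an elongation factor of translation (0.43, edgeR adjusted p = 0.00877), and Ddn, which encodes dendrin (0.30, edgeR adjusted p = 0.0386). Called lower were Nrgn, the calmodulin-binding neurogranin (-0.27, edgeR adjusted p = 0.00729), and Gria1, a glutamate receptor subunit (-0.44, edgeR adjusted p = 0.0205). Camk2a, a kinase of the postsynapse, had 0.29 (edgeR adjusted p = 0.0501). DESeq2 called 0 of the 14, and over all genes 60 of the 1732 it tested. The summed share of the list, which Nrgn leads, was lower in neuropil in 4 of 4 sections (mean log2 ratio -0.13 ± 0.10; SD, n = 4), so the median and the sum differ in sign.

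RNAs retained in the nucleus were set beside the cytoplasmic Bc1. Of 8 nuclear long noncoding RNAs 6 were tested, with a median log2 ratio of -0.08, and 5 were lower in neuropil. Meg3 (-0.05) and Snhg11 (-0.07), the most abundant, were not called, and Neat1, the RNA scaffold of paraspeckles, was called higher by edgeR (1.02, edgeR adjusted p = 0.0492); DESeq2 called 0 of the list. In edgeR 1 of the 6 was called, against 6.16% of all genes, and 2 had an unadjusted p under 0.05, against 16.4% of all genes. Their summed share was lower in neuropil in 4 of 4 sections (-0.22 ± 0.030; SD, n = 4). A difference between Bc1 and these lists was not tested.

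The proteins that work with BC1 gave no called gene in neuropil. Of 18 genes for its binding partners, translation initiation and dendritic transport, 15 were tested, 4 higher and 11 lower, with a median log2 ratio of -0.07. Eif4a2, a form of the helicase eIF4A, had -0.07, Cyfip2, a partner of the fragile X protein, -0.09, and Hnrnpa2b1, a transport factor, -0.03. Of 23 genes for transcription by RNA polymerase III only 4 had enough counts, 1 higher and 3 lower. Of these genes edgeR and DESeq2 each called 0, with 3 partner genes and 0 polymerase III genes at an unadjusted p under 0.05 in edgeR. Over all genes tested 691 of 4203 (16.4%) had such a p, against 3 of 15 here. The summed share was lower in neuropil in 4 of 4 sections for the partner genes (mean log2 ratio -0.17 ± 0.084) and for the polymerase III genes (-0.18 ± 0.15; SD, n = 4). The lowest adjusted p was that of Purb, a protein that binds RNA in dendrites (0.46, edgeR adjusted p = 0.0716).

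In trained against untrained sections Bc1 was lower in the hippocampal cell layers, with 7632 and 7349.8 CPM in trained 1 and trained 2 and 22726 and 11239 in untrained 1 and untrained 2. The fitted log2 ratio was -1.17, where the replicates of a group differed with an SD of 0.51. Without untrained 1 it was -0.57, and without untrained 2 it was -1.62, so the size rested on which untrained section was kept. In whole sections it was -1.13 (SD between replicates 0.34). Of all genes, 0.0511% of 7822 were called in the cell layers and 0.0145% of 13810 in whole sections; since Bc1 was chosen by this contrast, nothing is read from these shares.

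The lower level of Bc1 in trained sections was spread over the brain regions. Both trained sections lay below both untrained sections in 11 of the 13 regions, the exceptions being choroid plexus and spots led by striatal markers. In choroid plexus Bc1 had 8261 and 17412 CPM in trained 1 and trained 2, and 37557 and 10806 in untrained 1 and untrained 2. The choroid plexus markers themselves had 163717, 20853.5, 69274 and 161711 CPM in these spots, in the same order. Bc1 was lowest in trained 1 and untrained 2, where the markers took the most. The order did not hold throughout, since trained 2 was lowest in markers but lay below untrained 1 in Bc1. The part of the markers in the level of Bc1 was not tested. There 10 of the 44 spots of trained 2 lay in the bounded body, with 65548 CPM, and the other 34 had 9575. Outside the bodies of each section both trained sections lay below both untrained sections in choroid plexus, with 27441 in untrained 1. In striatal-marker spots it had 30489 and 25470.2 in the trained sections and 40121 and 30154 in the untrained sections. Outside the bodies the trained sections had 30059.8 and 12690.3 in these spots and the untrained sections 40121.2 and 30153.7. The groups then did not overlap, though trained 1 and untrained 2 were close. The bodies were set by Bc1 itself, so leaving them out lowers Bc1 by construction, and over the most spots in trained 2. Nothing on training is read from the values outside the bodies. Over 14 regions, the neuropil among them, the fitted log2 ratios were all below 0, with a median of -1.33 and a range from -1.66 in ependyma to -0.35 in striatal-marker spots. Leaving out a section moved the median to between -1.67 and -0.90. Without untrained 1 the ratio turned to 0.07 in choroid plexus, and it shrank from -0.85 to -0.26 in CA1 and from -1.51 to -0.46 in medial habenula. In striatal-marker spots it ran from -0.58 without trained 1 to -0.12 without untrained 1. In thalamus it ran from -2.60 without trained 1 to -0.68 without trained 2.

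By UMIs per spot Bc1 was lower in the trained mean in 12 of 13 regions. In upper-layer cortex the means were 66.1 UMIs per spot in trained and 122.2 in untrained sections, in DG 24.1 and 48.4, and in meninges 65.9 and 132. In striatal-marker spots they were 89.1 and 73.7, the reverse. In trained 2, 95 of the 231 striatal-marker spots lay in the bounded body, with 75775 CPM, and the other 136 had 12690.3.

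Whether the training difference in Bc1 itself differed between regions does not rest on the contrast that chose the gene, and it was tested as an interaction of region and training. Bc1 was called in 0 of 13 regions by edgeR and in 0 by DESeq2, with 1 region at an unadjusted p under 0.05 by each tool. In these tests edgeR called 0.036% of 8336 genes for ependyma and for striatal-marker spots, 0.024% for hypothalamus, 0.012% for medial habenula and 0% for the other 9 regions. The ratio of Bc1 ranged over regions from -0.44 in ependyma to 0.90 in striatal-marker spots (SE 0.33, edgeR adjusted p = 0.579). The fit without trained 1 leaves trained 2 alone in its group and assumes that it varies like the others. Calls then appeared in choroid plexus (1.12), striatal-marker spots (1.03), thalamus (-1.17) and white matter (-0.95). In trained 2 the bounded body held 10 choroid plexus spots, 95 striatal-marker spots and 0 spots of thalamus or of white matter. It also held spots of other regions, such as 72 of hypothalamus. The part of the body in these ratios was not tested. With any of the other 3 sections left out, 0 regions were called by edgeR.

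Genes whose products work with BC1 or make it are given beside Bc1 for the same contrast. Eif4a2 had 692 and 676 CPM in trained 1 and trained 2, and 660.1 and 650.3 in untrained 1 and untrained 2. Polr1d, a subunit that RNA polymerases I and III share, had 121 and 125 in trained and 119 and 119 in untrained sections, and Maf1, a repressor of RNA polymerase III, had 76.0 and 89.4 in trained and 77.8 and 77.2 in untrained sections. In the edgeR fit, whose TMM scaling differs from CPM, 7 of the 18 partner genes were higher and 11 lower in trained whole sections, with a median log2 ratio of -0.03, and 10 of the 23 polymerase III genes were higher and 13 lower, also with a median of -0.03. All genes tested had a median of 0.01. By mean CPM 10 partner genes were higher and 8 lower, and 16 polymerase III genes were higher and 7 lower, so the direction turned with the scaling in both lists and none is read from them. Of both lists edgeR and DESeq2 each called 0 members, and 0 had an unadjusted p under 0.05 in edgeR. Over all genes edgeR called 2 of 13810 and DESeq2 21 of the 3726 it tested, and 7.96% had an unadjusted p under 0.05 in edgeR.

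Dendritic mRNAs had mostly negative ratios in whole sections and an even split in the cell layers. In whole sections 3 of the 14 were higher and 11 lower in trained mice, with a median log2 ratio of -0.32; edgeR called 0, with 7 at an unadjusted p under 0.05, and DESeq2 called 1, Ddn. Over all genes 1099 of 13810 (7.96%) had such a p in edgeR, and DESeq2 called 21 of the 3726 it tested. Camk2a had 450.4 and 320.1 CPM in trained 1 and trained 2, and 528 and 574 in untrained 1 and untrained 2 (-0.59, edgeR adjusted p = 0.562). Ddn had -0.64 (edgeR adjusted p = 0.353). In the cell layers 7 were higher and 7 lower, with a median of -0.0026 against 0.01 over all genes; edgeR and DESeq2 called 0, with 1 at an unadjusted p under 0.05, against 401 of all 7822 genes (5.13%). Nuclear long noncoding RNAs were 4 higher and 4 lower in whole sections (6 and 2 by mean CPM), and 4 higher and 3 lower in the cell layers; edgeR and DESeq2 called 0 in both, with 1 at an unadjusted p under 0.05 in each.

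Signs of tissue and RNA state that moved with the sections are given beside Bc1. Over whole sections, the 13 mitochondrially encoded genes took 12.2% of UMIs in trained 1 and 6.83% in trained 2. They took 12.1% in untrained 1 and 11.6% in untrained 2, so trained 2 was low and the groups overlapped. In the hippocampal cell layers trained 2 was the highest instead, with 102498 CPM against 84829 in trained 1, 92772 in untrained 1 and 86714 in untrained 2. It was the highest in neuropil too. Over whole sections, the 3 ribosomal RNA-like genes, led by Gm42418, had 575.3 and 234 CPM in trained 1 and trained 2, and 794 and 689 in untrained 1 and untrained 2. Both trained sections lay below both untrained sections there, as for Bc1. Astrocyte markers, led by Apoe, had 4756 and 4859.5 in the trained whole sections and 5371 and 5038 in the untrained ones, so both trained sections lay below for these too. In the cell layers they overlapped, with 3568 and 4949 in trained 1 and trained 2, and 3514 and 3602 in untrained 1 and untrained 2. Interneuron markers, led by Sst or Gad1, lay higher in trained whole sections, with 1682 and 1640 against 1553 and 1515 in the untrained ones. In the cell layers the ribosomal RNA-like genes and the interneuron markers kept their directions. The part of these in the level of Bc1 was not tested.

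By the rule for likeness, 441 genes with at least 10 UMIs in each of the 52 sums of region and section were compared with Bc1, after centring each gene within sections. Pearson's r of the log2 level with that of Bc1 had a median of 0.0249 over these genes. The most alike were Sst, a neuropeptide of interneurons (0.569), mt-Atp8, a mitochondrially encoded part of ATP synthase (0.534), Prkar1b, a regulatory subunit of protein kinase A (0.530), Mif, a cytokine (0.523), and Ctsb, the lysosomal protease cathepsin B (0.516). Within sections the r of Sst ran from 0.432 to 0.735, and that of mt-Atp8 from 0.173 to 0.764.

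The most opposite to Bc1 were Eif4g2, a relative of an initiation factor of translation (-0.615), Ndufa4, of the respiratory chain (-0.581), Atp5l (-0.573) and Atp5a1 (-0.521), nuclear-encoded parts of ATP synthase, and Ncdn, neurochondrin (-0.523). Eif4g2 had an r from -0.879 to -0.304 within sections. The points share sections, depth and the total by which levels were scaled, so these values are descriptions and say nothing of shared control.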

How the data were processed

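The deposited files hold counts (UMIs per gene and spot) that the authors made with Space Ranger against mm10, per their methods. The submission's notes name Cell Ranger 8, STAR and GRCm39 instead; coordinates here are those of GRCm38 and GENCODE, and RefSeq for the same build. The deposited position lists give array coordinates of each spot. The single-nucleus data and section images were not used here. Bc1, the lists and the tests were chosen with earlier results of these data known.

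UMIs were summed over spots of each section or region, sections being the replicates (2 per group). Spots were scored by the mean z of log UMIs per 10000 for each of 14 marker lists. A region was the list leading the score averaged over a spot and its neighbours, if at least 0.3. Spots of CA1, CA3 and DG had to lie in 1 connected body, reach 0.5 in their own score and hold 2 marker UMIs. Sums were fitted with edgeR 4.0.16 (quasi-likelihood, TMM, filterByExpr, Benjamini-Hochberg over all genes tested) and, as an alternative, DESeq2 1.42.0, in R 4.3.3. The pipeline was tested on simulated data. Levels and figures used Python 3.11.15, numpy 2.4.6, scipy 1.17.1, pandas 2.3.3 and matplotlib 3.10.9, and copies of Bc1 were found with blastn 2.17.0 and samtools 1.23.1. Depth ran from 3560294 to 10330015 UMIs per section.

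Named genes are Bc1, the 2 to 4 members of each fitted list with the most UMIs (for groups given only as sums, the most abundant gene), any member called, and the 5 genes most and least correlated with Bc1; Purb, Gria1 and LTO1 are named beside these. Neuropil was planned without the ring next to the cell layers, which left between 4 and 42 spots in a section, so that ring was included, and a limit on the CA1, CA3 and DG scores of its spots was added. Regions were planned with scores of single spots, and averaged scores were used once maps showed such labels scattered. Both changes were made with spot counts and levels of Bc1 under several definitions in view, so the neuropil and region tests are not free of that choice.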

Additional observations from a re-analysis of the deposited data

How the results depend on the processing

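Alternatives were the other tool, no filter on low counts, fits without the genes that take many UMIs, random thinning of all sums to equal totals, spots with at least 500 UMIs, other region scores, and each section left out. Chosen after seeing the data were spots with 1000 to 4000 UMIs other than Bc1. Scores of single spots and leaving out the ring next to the cell layers were the plan; the settings reported as main replaced them after levels of Bc1 had been seen.

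Trained over untrained, the log2 ratio of Bc1 stayed below 0 in all 14 alternatives for hippocampal cell layers and all 11 for whole sections. Leaving out a section gave -1.62 to -0.57 in the cell layers, -1.45 to -0.85 in whole sections and -1.67 to -0.90 for the median of the other regions. With replicate number as a block the values were -1.08 and -1.14; samples share only a number, and genes of the 2 sections numbered 1 had r = 0.0367 over 12353 genes after centring by group, so the pairing was not used. Over all genes, whole sections had 2 called by edgeR, against 47 with the block, 848 without trained 1, 40 without trained 2, 8 without untrained 2, 211 with no filter and 21 by DESeq2; cell layers had 4, against 14 with the block, 51 without trained 1, 0 without trained 2 (223 at an unadjusted p under 0.05) and 0 by DESeq2 (29 at an unadjusted p under 0.05).

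For neuropil over cell layers, 15 of 17 alternatives kept the call of Bc1, and values ran from 0.56 to 1.41. The call was lost with averaged scores alone (0.56, edgeR adjusted p = 0.192) and without the ring next to the cell layers, as planned (0.91, edgeR adjusted p = 0.0533; 21, 4, 42 and 7 spots); the causes were not tested. Leaving out a section gave 1.05 to 1.41. Without the section block it was 1.32 (edgeR adjusted p = 0.0381). Genes called were 259, and from 12 of 2866 without that ring to 1345 of 7882 with spots led by another list included; between these were 46 at 1000 to 4000 UMIs, 60 by DESeq2, 72 with averaged scores and 628 with single-spot scores and no ring.

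Regions with a called level of Bc1 were 7 in the main setting and 6 to 10 with a section left out. With a stricter score they were 8 of 12, where CA1 had too few spots and choroid plexus (-0.57) and medial habenula (-0.87) were added. They were 8 at 1000 to 4000 UMIs (upper-layer cortex added) and 5 with scores of single spots, the plan. That last fit held CA3 in place of ependyma, so its 5 and the main 7 count different regions. Regions with a called difference in the training effect were 0, and 0 to 4 with a section left out, 4 being without trained 1. With 2 sections per group, an exact permutation test of 1 value can reach no p below 0.333.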
